A study of Mus musculus with 4 samples.

Results

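The genes that encode the fragile X protein family, the cap-binding protein eIF4E with its partners, and the RNA-binding protein CPEB1 were followed in nuclei of the mouse hippocampus. They were chosen by symbol, and all 10 were found among the 32285 genes of the count tables, each in 1 row. Fmr1, Fxr1 and Fxr2 make up the first group, Eif4e, Eif4ebp1, Eif4ebp2, Eif4g1, Eif4g2 and Eif4g3 the second, and Cpeb1 stands by itself. The study compared wild-type (WT) mice with littermates heterozygous for a knock-in (KI) of the Arg87Cys change in Cyfip2, written Cyfip2+/R87C, on the C57BL/6N background. The mice were adult, and the hippocampi of both hemispheres of 2 mice per genotype were frozen before nuclei were isolated, 1 library per mouse. The treatment label of KI replicate 2 reads R88C, while its title and genotype label place it with the KI mice, where it was kept. All libraries carry the same batch label, so no comparison between batches was possible.

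FMRP, the product of Fmr1, binds mRNAs of synaptic proteins and holds back their translation, and its loss causes fragile X syndrome. CYFIP1 and CYFIP2 bind FMRP, and CYFIP1 can also bind eIF4E, the protein that grips the cap at the start of an mRNA. When eIF4E is free it recruits the scaffold eIF4G and translation begins, and when a 4E-BP holds it, the scaffold is shut out until the kinase mTOR releases it. CPEB1 works at the other end of the mRNA, where it binds a short element near the tail, sets the length of the poly(A) tail and so governs translation at synapses.

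Nuclei with at least 500 detected genes were kept, and the 4 libraries then held 11932 to 14927 nuclei each, 52032 in all, with 66272968 to 73353838 UMIs (unique molecular identifiers, each 1 counted molecule of RNA). Clusters were named from fixed marker genes into 14 classes. No class of CA2 neurons, endothelial cells or ependymal cells was named, and 16.2% of the nuclei stayed unnamed. The cluster named fibroblasts had 8 of 8 fibroblast markers raised at least 2-fold, but also 7 of 9 astrocyte markers. In it the fibroblast markers summed to 413 to 1410 CPM (defined below) and the astrocyte markers to 2080 to 4480 CPM. The choroid plexus markers summed there to 5180 CPM in WT replicate 1. They summed to 505, 791 and 458 CPM in WT replicate 2 and KI replicates 1 and 2. The levels of this class may therefore be those of mixed nuclei. The oligodendrocytes came from 1 cluster that held 1972 and 1211 WT nuclei but 37 and 80 KI nuclei, and from another that held 62 and 15 WT nuclei but 2072 and 781 KI nuclei. In this class a difference between genotypes cannot be told apart from one between these clusters, for any gene. The 4 clusters of subicular or cortical excitatory neurons had 361 and 1140 nuclei from WT mice against 916 and 1746 from KI mice. Levels are given as CPM, the UMIs of a gene divided by all UMIs of the same class in the same library, times 1000000. They were compared between classes and genotypes, not between genes. Malat1, a nuclear RNA, made up 8.9% and 8.71% of all WT UMIs against 13.7% and 12.2% of all KI UMIs, which lowers the CPM of other genes in KI. Fold changes were therefore taken from edgeR, which rescales the libraries by TMM factors (a trimmed mean of the ratios of all genes), and are given as log2 of KI over WT.

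In the KI mice Cpeb1 was higher in DG granule neurons, by 1.76-fold, and in CA1 pyramidal neurons, by 1.47-fold. It was the only one of the 10 genes that passed an adjusted p of 0.05 in any class. Fxr1 lay lower in both KI libraries than in both WT libraries in 11 of 14 classes, with adjusted p-values that stayed above the threshold in each. The other genes were called in no class, and Eif4ebp1 was hardly detected.

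Over all nuclei, 0 of the 10 genes passed the adjusted threshold, where 0.889% of the 21718 genes tested did. At an unadjusted p below 0.05 there were 2, Cpeb1 and Fxr1, where 5282 of the 21718 genes tested passed. DESeq2 called the same 2 genes, among 1865 genes called of 28322. Within classes, 111 combinations of a gene and a class passed the filter on low counts and 2 were called, both of them Cpeb1. The share of all tested genes that was called gives the scale for that count. It was 9.78% in DG granule neurons, 7.32% in CA1 pyramidal neurons, 2.36% in CA3 pyramidal neurons, 0.686% in mossy cells and 1.39% in inhibitory neurons. Among glial and vascular classes it was 0.795% in oligodendrocytes, 0.195% in astrocytes, 0.0744% in fibroblasts and 0.0279% in OPC (oligodendrocyte precursor cells). It was 0% in microglia, mural cells, committed oligodendrocyte precursors, Cajal-Retzius cells and subicular or cortical excitatory neurons (edgeR). Among DG granule neurons 1 of 9 tested genes of the group was called, close to the share over all genes. Of the genes called in DG granule neurons, 795 were higher and 801 lower in KI, and without TMM factors 617 were higher and 1212 lower. The 2 calls were lost without WT replicate 1 or 2, and more were made without KI replicate 1 or 2. Calls over all genes of DG granule and CA1 pyramidal neurons fell and rose in the same fits. Each such fit assumes that the lone mouse varies like those of the other group. Over all nuclei some of the 10 genes were also called without either KI library, where calls over all genes rose too.

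**Figure D1:**
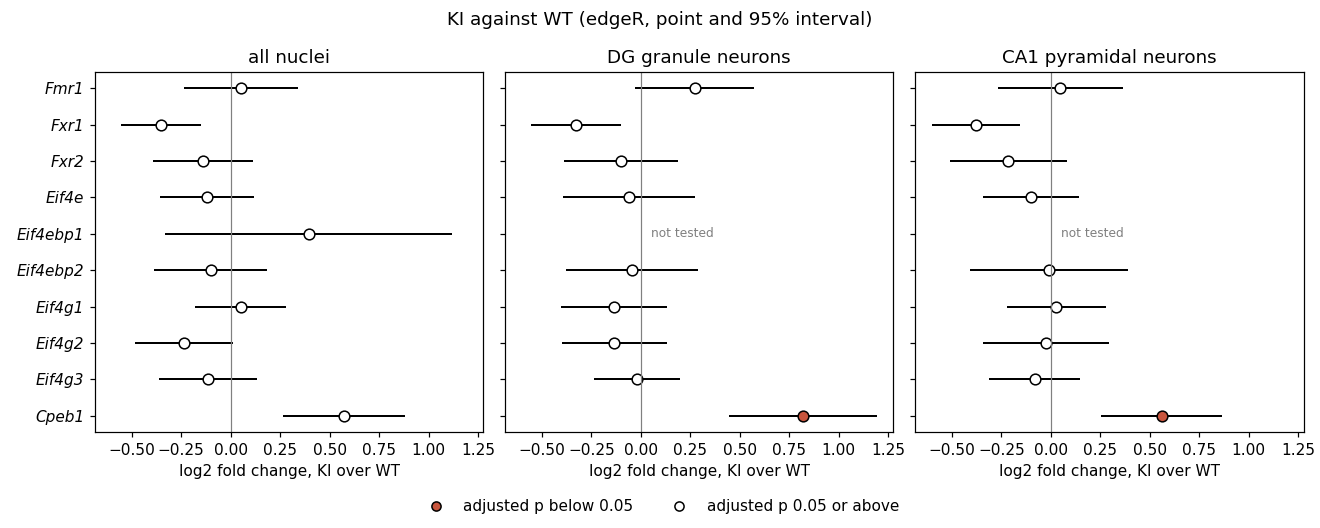
Log2 fold change of KI over WT (horizontal axis) for each gene (vertical axis) in all nuclei, DG granule neurons and CA1 pyramidal neurons, 2 mice per genotype. Points are edgeR estimates, lines their 95% intervals and filled points adjusted p-values below 0.05; only Cpeb1 in DG granule neurons (0.82) and CA1 pyramidal neurons (0.56) is filled, and Fxr1 lies to the left of 0 in all 3 panels.

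Cpeb1 lies on the minus strand of chromosome 7 from position 81347026 to 81455465 (GRCm38, GENCODE M21). The 250 bases before its RefSeq start are shown because it is the gene that was called, and those of Fxr1 because it lay apart in the opposite direction in most classes. The starts of the 2 annotations differ: the GENCODE span covers all transcripts of a gene, so the Cpeb1 window lies inside it and the Fxr1 window runs past its first base. Both sequences are from RefSeq on GRCm38.p6, read 5′ to 3′ on the strand of the gene, chr7:81454759-81455008 for Cpeb1 and chr3:34019829-34020078 for Fxr1. Capitals mark GC boxes (GGGCGG) and the core of the cAMP response element (TGACG), each searched on both strands.
Cpeb1: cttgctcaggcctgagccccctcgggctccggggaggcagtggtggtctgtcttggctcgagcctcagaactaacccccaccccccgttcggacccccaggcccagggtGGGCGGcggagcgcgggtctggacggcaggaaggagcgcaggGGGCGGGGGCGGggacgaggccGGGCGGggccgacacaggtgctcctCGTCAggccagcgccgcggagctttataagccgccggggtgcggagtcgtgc
Fxr1: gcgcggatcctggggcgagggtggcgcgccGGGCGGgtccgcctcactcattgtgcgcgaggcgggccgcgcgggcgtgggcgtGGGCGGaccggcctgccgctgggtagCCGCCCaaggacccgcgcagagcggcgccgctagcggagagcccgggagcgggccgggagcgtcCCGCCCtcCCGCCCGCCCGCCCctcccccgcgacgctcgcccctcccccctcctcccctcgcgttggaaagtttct
The Cpeb1 window held 4 GC boxes and 1 such core, and the Fxr1 window held 7 GC boxes, some of them overlapping, and no such core. Of 32851 promoter windows of this length, 32.7% held a GC box and 17.8% that core. Both windows were rich in G and C, 74% for Cpeb1 and 80% for Fxr1, against a median of 52.4% over all windows. Windows were held for 8 of the 10 genes, not for Eif4ebp1 and Eif4g2.

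In DG granule neurons, the neurons that receive the main cortical input of the hippocampus, Cpeb1 stood at 87.8 and 86.7 CPM in the WT libraries and at 157 and 122 CPM in the KI libraries. These levels rested on 1557, 1316, 1868 and 1180 UMIs. Both KI mice lay above both WT mice, and the KI mice differed from each other by more than the WT mice did. The log2 fold change was 0.82 (SE 0.152, 95% interval 0.45 to 1.19, adjusted p = 0.0252). In CA1 pyramidal neurons, the output neurons of the hippocampus proper, the levels were 90.1 and 89.2 CPM in WT against 134 and 114 CPM in KI. Again the groups did not overlap, and KI replicate 1 was the higher of the KI mice. The log2 fold change was 0.56 (SE 0.127, 95% interval 0.26 to 0.86, adjusted p = 0.0466). The call in CA1 pyramidal neurons was lost with the doublets kept (adjusted p = 0.0515), at equal depth (0.0532) and with each nucleus gated by its own markers (0.0549), with log2 fold changes of 0.53 to 0.56. Without WT replicate 1 or 2 both calls were lost, at adjusted p-values of 0.14 and 0.15 in DG granule neurons and of 0.248 and 0.247 in CA1 pyramidal neurons, while the log2 fold changes were 0.80 to 0.83 and 0.54 to 0.56.

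Cpeb1 pointed the same way in every other class tested. In CA3 pyramidal neurons it was at 117 and 110 CPM in WT against 156 and 133 CPM in KI (log2 fold change 0.43, SE 0.127, adjusted p = 0.117). Inhibitory neurons held 90.9 and 87.4 CPM in WT against 141 and 110 CPM in KI (0.60, SE 0.145, adjusted p = 0.0759). These differences are of the size seen in CA1 pyramidal neurons, but neither passed the threshold. In subicular or cortical excitatory neurons the levels were 78.3 and 89.5 CPM against 151 and 133 CPM, a log2 fold change of 0.82 with an adjusted p of 0.39. OPC had 74 and 60.8 CPM in WT against 119 and 91.3 CPM in KI (0.75, adjusted p = 0.382). In astrocytes the levels were 99 and 95.9 against 118 and 113 CPM, in oligodendrocytes 70.2 and 81.9 against 102 and 82.5 CPM, and in microglia 60.3 and 78.5 against 82.5 and 106 CPM. These glial groups did not overlap either, although the oligodendrocytes of WT replicate 2 and KI replicate 2 were nearly alike. Over all 14 classes both KI libraries lay above both WT libraries in 10, and 1.41% of the genes with at least 10 CPM did so in as many. The exceptions were mossy cells, Cajal-Retzius cells, committed oligodendrocyte precursors and mural cells, which had 25 to 81 nuclei per library. In all nuclei together Cpeb1 was at 91.5 and 90.2 CPM in WT against 142 and 119 CPM in KI (log2 fold change 0.57, SE 0.123, adjusted p = 0.0812).

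**Figure D2:**
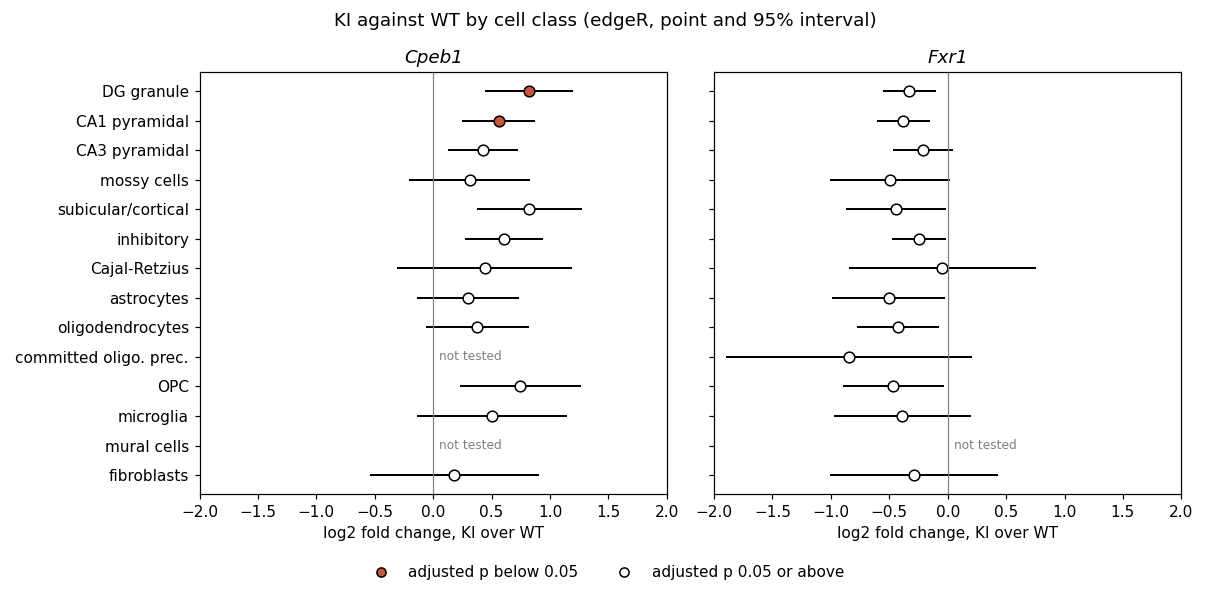
Log2 fold change of KI over WT (horizontal axis) of Cpeb1 and Fxr1 in each cell class (vertical axis), 2 mice per genotype. Points are edgeR estimates, lines their 95% intervals, and filled points have an adjusted p below 0.05; the Cpeb1 estimates run from 0.18 to 0.82, all above 0, and the Fxr1 estimates from -0.84 to -0.04, all below 0.

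The size of the Cpeb1 difference was compared between classes of the same mice. It was larger in DG granule neurons than in CA3 pyramidal neurons by 0.39 on the log2 scale (SE 0.0992, 95% interval 0.18 to 0.60, adjusted p = 0.0165). For that pair 11.5% of all tested genes were called. The call was lost without WT replicate 1 (0.35, adjusted p = 0.292), without WT replicate 2 (0.43, adjusted p = 0.126) and with each nucleus gated by its own markers (0.31, adjusted p = 0.121). Against CA1 pyramidal neurons the difference of differences was 0.25 (95% interval 0.05 to 0.45, adjusted p = 0.0961), with 14% of genes called. Against inhibitory neurons it was 0.21 (95% interval -0.02 to 0.43, adjusted p = 0.29), with 8.75% called. Against oligodendrocytes it was 0.49 (95% interval 0.12 to 0.86, adjusted p = 0.176), with 2.85% called. The oligodendrocyte clusters split by genotype, which this term cannot separate. None of the other 9 genes was called in the 4 pairs. Those of them with an unadjusted p below 0.05 were Fmr1 for DG granule against CA1 pyramidal neurons (0.22, adjusted p = 0.184), Eif4g1 for DG granule against CA3 pyramidal neurons (-0.26, adjusted p = 0.126) and Eif4g2 for DG granule against inhibitory neurons (0.30, adjusted p = 0.202).

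Markers of other cell types were measured in the same DG granule neurons. The summed levels of 17 lists did not overlap between the genotypes for 10, with 7 higher and 3 lower in KI. The 8 CA1 markers summed to 162 to 185 CPM in WT and 347 to 384 CPM in KI, with 1 of them higher and 3 lower in both KI libraries. The 8 OPC markers summed to 224 to 232 CPM in WT and 447 to 460 CPM in KI, with 3 of them higher and 1 lower. The 8 DG granule markers overlapped between the genotypes, at 3391 to 3711 CPM in WT and 3115 to 3695 CPM in KI. In CA1 pyramidal neurons the 8 CA1 markers were lower in KI, at 4812 to 5046 CPM against 6295 to 6458 CPM, with 7 of 8 lower in both KI libraries. In these neurons 14 of the 17 other lists did not overlap, with 10 higher and 4 lower in KI. No marker of these lists was at 0. Their part in the Cpeb1 difference was not tested.

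By level, Cpeb1 was highest in Cajal-Retzius cells, the reelin-secreting neurons at the surface of the hippocampus, at 165 CPM (mean over the 4 libraries). Mossy cells and CA3 pyramidal neurons followed at 130 and 129 CPM, then DG granule neurons and subicular or cortical excitatory neurons at 113 CPM each. The cluster named mossy cells had 6 of 9 mossy markers raised and also 3 of 8 CA3 markers, so it may not be fully separate from CA3 pyramidal neurons. Glial and vascular classes had lower means, from 106 CPM in astrocytes to 80.1 CPM in mural cells and 61.4 CPM in committed oligodendrocyte precursors. Each class overlapped with the next in this order, while the highest class lay above the lowest in every library, at 116 CPM or more against at most 101 CPM.

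Fxr1, a paralog of FMRP that binds RNA in muscle and brain, lies on the plus strand of chromosome 3 from position 34019943 to 34070322. In all nuclei it was at 145 and 147 CPM in WT against 110 and 112 CPM in KI. The mice of each genotype were close together and the genotypes apart. The log2 fold change was -0.35 (SE 0.0795, 95% interval -0.55 to -0.15, unadjusted p = 0.00478, adjusted p = 0.0873). DG granule neurons held it at 151 and 152 CPM against 110 and 110 CPM (log2 fold change -0.33, SE 0.0915, adjusted p = 0.0733). CA1 pyramidal neurons held it at 134 and 139 CPM against 98.5 and 99.2 CPM (-0.38, SE 0.0915, adjusted p = 0.053). The adjusted p fell below 0.05 without TMM factors, at 0.0261 in DG granule and 0.0289 in CA1 pyramidal neurons, a setting in which the median log2 fold change of all genes in DG granule neurons moved from 0 to -0.14. Without either KI library the log2 fold changes of Fxr1 in all nuclei, DG granule neurons and CA1 pyramidal neurons were -0.30 to -0.43.

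Outside these neurons Fxr1 lay lower in KI in oligodendrocytes, at 203 and 194 CPM in WT against 133 and 150 CPM in KI (log2 fold change -0.43, SE 0.152, adjusted p = 0.248). OPC showed 176 and 175 against 111 and 123 CPM (-0.46, adjusted p = 0.476). Astrocytes showed 133 and 143 against 75.4 and 111 CPM (-0.50, adjusted p = 0.39). Among neurons, the inhibitory class showed 149 and 151 against 116 and 119 CPM (-0.24, adjusted p = 0.223). In 11 of the 14 classes both KI libraries were below both WT libraries. Of all genes with at least 10 CPM, 2.58% showed this in as many classes. Only Cajal-Retzius cells, mural cells and fibroblasts had overlapping values. All 13 fitted classes gave a negative estimate, and 7 of them an unadjusted p below 0.05 (edgeR). These classes come from the same mice. That p was reached by 4783 of 16326 genes in DG granule neurons and 4370 of 16311 in CA1 pyramidal neurons. The gene Dnajc19, a mitochondrial co-chaperone, overlaps Fxr1 on the opposite strand, and the sources used here do not state whether counting used strand. Dnajc19 was at 80.4 and 80 CPM in WT against 73.6 and 72.3 CPM in KI over all nuclei, and its part in the Fxr1 values was not tested. By level it was highest in committed oligodendrocyte precursors (mean 186 CPM, range 94.6 to 294 CPM) and oligodendrocytes (170 CPM) and lowest in mossy cells (109 CPM, range 74.6 to 137 CPM). Each class overlapped with its neighbour in the order, and the highest overlapped with the lowest.

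Fmr1 lies on the X chromosome from position 68678541 to 68717963. Xist, which is transcribed from the inactive X, was at 0.432 to 1.21 CPM in the libraries and the Y-linked Uty at 112 to 126 CPM, levels of male tissue in both genotypes. In all nuclei Fmr1 was at 47.6 and 48.6 CPM in WT against 51.1 and 44.9 CPM in KI. The genotypes overlapped, and the log2 fold change was 0.05 with a 95% interval of -0.23 to 0.33. DG granule neurons showed 48.9 and 50.8 CPM in WT against 57.8 and 51.6 CPM in KI (0.27, 95% interval -0.02 to 0.57, adjusted p = 0.2). CA1 pyramidal neurons showed 45.1 and 43.8 against 45.8 and 40.5 CPM (0.05, 95% interval -0.26 to 0.36). Of 12 fitted classes, 10 gave an estimate above 0 and none an unadjusted p below 0.05. Fmr1 was found in all 14 classes at similar levels, from 67.8 CPM in Cajal-Retzius cells and 64.3 CPM in fibroblasts to 41.2 CPM in mossy cells and 40.2 CPM in CA3 pyramidal neurons. Astrocytes and oligodendrocytes held 59.3 and 61.9 CPM and CA1 pyramidal neurons 43.8 CPM, with 3 astrocyte libraries above every CA1 library and the fourth, at 42.2 CPM, within the CA1 range. The step from the lowest to the highest class was 1.69-fold, and no neighbours in the order were apart.

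Fxr2, the other paralog of FMRP, lies on chromosome 11 from position 69632990 to 69653297. It was at 40.6 and 38.5 CPM in WT against 32.7 and 36.6 CPM in KI over all nuclei. The KI libraries were lower without overlap, but the log2 fold change of -0.14 had a 95% interval of -0.39 to 0.11 (adjusted p = 0.417). The levels in DG granule neurons were 38.4 and 41.7 against 33.5 and 34.5 CPM, and in CA1 pyramidal neurons 37.4 and 34.7 against 27.3 and 31.4 CPM (adjusted p = 0.598 and 0.304). Its estimates over 11 classes ran from -0.34 in oligodendrocytes to 0.05 in subicular or cortical excitatory neurons. By level Fxr2 was highest in fibroblasts (60.1 CPM) and mural cells (53.8 CPM), with 37 CPM in DG granule neurons and 32.7 CPM in CA1 pyramidal neurons.

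Non-overlap by itself was common in these data. In all nuclei 45.1% of genes with at least 10 CPM were lower in both KI libraries than in both WT libraries and 19.9% higher. The 9 genes of the group that reach 10 CPM showed 6 lower and 1 higher. Of the genes in DG granule neurons 49% were lower and 19.2% higher, and in the group 7 lower and 2 higher. In CA1 pyramidal neurons 43.8% were lower and 21.5% higher, and in the group 4 lower and 1 higher. The genes with higher CPM in KI were the fewer in each case, for the group as for all genes.

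Eif4e, the cap-binding protein itself, lies on chromosome 3 from position 138526179 to 138559696. Its level was 63.4 and 65.7 CPM in WT against 58.6 and 55.9 CPM in KI over all nuclei (log2 fold change -0.12, 95% interval -0.35 to 0.11, adjusted p = 0.461). DG granule neurons held 62.9 and 66.5 against 61.3 and 51.3 CPM (-0.06, 95% interval -0.39 to 0.27). CA1 pyramidal neurons held 63.8 and 63.8 against 55.4 and 56.8 CPM (-0.10, 95% interval -0.34 to 0.14). Eif4e was highest in committed oligodendrocyte precursors, the cells on their way to myelination, at 107 CPM (range 87.8 to 124), and lowest in astrocytes at 48.1 CPM (range 40.8 to 58). All 4 libraries of the highest class lay above those of the lowest.

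Of the 4E-BPs, which hold eIF4E back, Eif4ebp2 is the form known as the main one in the brain. It lies on the minus strand of chromosome 10 from position 61428491 to 61452661. It was at 23.1 and 24.3 CPM in WT against 22 and 20.6 CPM in KI over all nuclei (log2 fold change -0.10, 95% interval -0.38 to 0.18). The estimate was -0.05 in DG granule neurons (95% interval -0.37 to 0.29) and in CA1 pyramidal neurons -0.01 (95% interval -0.40 to 0.39). Microglia held the highest level, 53 CPM, but their libraries ran from 29.6 to 71.6 CPM. CA1 pyramidal neurons held the lowest at 19.3 CPM, with 17.3 to 22.4 CPM over the libraries. Eif4ebp1, on chromosome 8 from position 27260329 to 27276674, gave 37, 43, 45 and 61 UMIs in all nuclei of WT replicates 1 and 2 and KI replicates 1 and 2, at most 0.832 CPM. It passed the filter on low counts in no class. Microglia held 16 UMIs and astrocytes 19, 5.47 and 4.62 CPM of the class over the 4 libraries, against 0.496 CPM in DG granule neurons with 27 UMIs and 0.137 CPM in CA1 pyramidal neurons with 7. Its count was 0 in mossy cells, Cajal-Retzius cells and committed oligodendrocyte precursors, which allows up to 1.41, 4.24 and 6.64 CPM at 3 counts over the class. These limits cover counting error only.

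The eIF4G scaffolds differed in their estimates, with no call. Eif4g1, on chromosome 16 from position 20668313 to 20692884, was at 69.9 and 64.6 CPM in WT against 65.2 and 69.3 CPM in KI over all nuclei (log2 fold change 0.05, 95% interval -0.17 to 0.28). It lay lower in KI in DG granule neurons, at 72.9 and 69.7 against 54.8 and 63.8 CPM (-0.13, adjusted p = 0.454). In subicular or cortical excitatory neurons it lay higher, at 63.9 and 59.4 against 74.5 and 73.2 CPM (0.33, adjusted p = 0.608). OPC showed 59.3 and 58.6 against 72.9 and 68.8 CPM (0.38, adjusted p = 0.587). Its estimate was above 0 in 12 of 13 fitted classes, all from the same mice, and none had an unadjusted p below 0.05 (edgeR). Fibroblasts held the highest level (153 CPM, 127 to 203 over the libraries) and CA1 pyramidal neurons the lowest (54.8 CPM, 50.6 to 57), a 2.79-fold step.

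Eif4g2 encodes a relative of the scaffolds that lacks the binding site for eIF4E, and lies on the minus strand of chromosome 7 from position 111067750 to 111083030. It showed the widest spread between classes among the genes measured above 10 CPM, 4.9-fold from 34.1 CPM in mossy cells to 167 CPM in fibroblasts. Astrocyte markers were also raised in that fibroblast class. Astrocytes (117 CPM) and oligodendrocytes (105 CPM) held about as much as mural cells (122 CPM), while DG granule and CA1 pyramidal neurons held 53.2 and 44.2 CPM. In inhibitory neurons it was at 63.9 and 62.3 CPM in WT against 38.9 and 48.1 CPM in KI (log2 fold change -0.43, SE 0.135, unadjusted p = 0.0102, adjusted p = 0.135). Oligodendrocytes showed 123 and 123 against 80.9 and 94.5 CPM (-0.43, adjusted p = 0.265). The oligodendrocyte cluster with most WT nuclei gave 124 and 123 CPM in WT. Its few KI nuclei gave 145 and 155 CPM, from 9 and 16 UMIs. The cluster with most KI nuclei gave 79.8 and 89.8 CPM in KI, so this difference cannot be told apart from one between the clusters. DG granule neurons showed 60.4 and 56 against 47.3 and 49.3 CPM (-0.13, adjusted p = 0.452), and CA1 pyramidal neurons 46.9 and 44.7 against 36.9 and 48.3 CPM (-0.03, adjusted p = 0.923).

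Eif4g3, the scaffold with the longest gene of the group, lies on chromosome 4 from position 137993022 to 138208508. It was at 216 and 227 CPM in WT against 180 and 216 CPM in KI over all nuclei (log2 fold change -0.11, 95% interval -0.36 to 0.13). The estimate was -0.02 in DG granule neurons (95% interval -0.23 to 0.19) and in CA1 pyramidal neurons -0.08 (95% interval -0.31 to 0.14). KI replicate 1 was the lowest library in both. Microglia held the highest level, 288 CPM, and their lowest library (260 CPM) lay above every library of the next class, the subicular or cortical excitatory neurons at 243 CPM. This was the only step between neighbours without overlap among the 10 genes. Oligodendrocytes held the lowest level at 144 CPM.

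**Figure D3:**
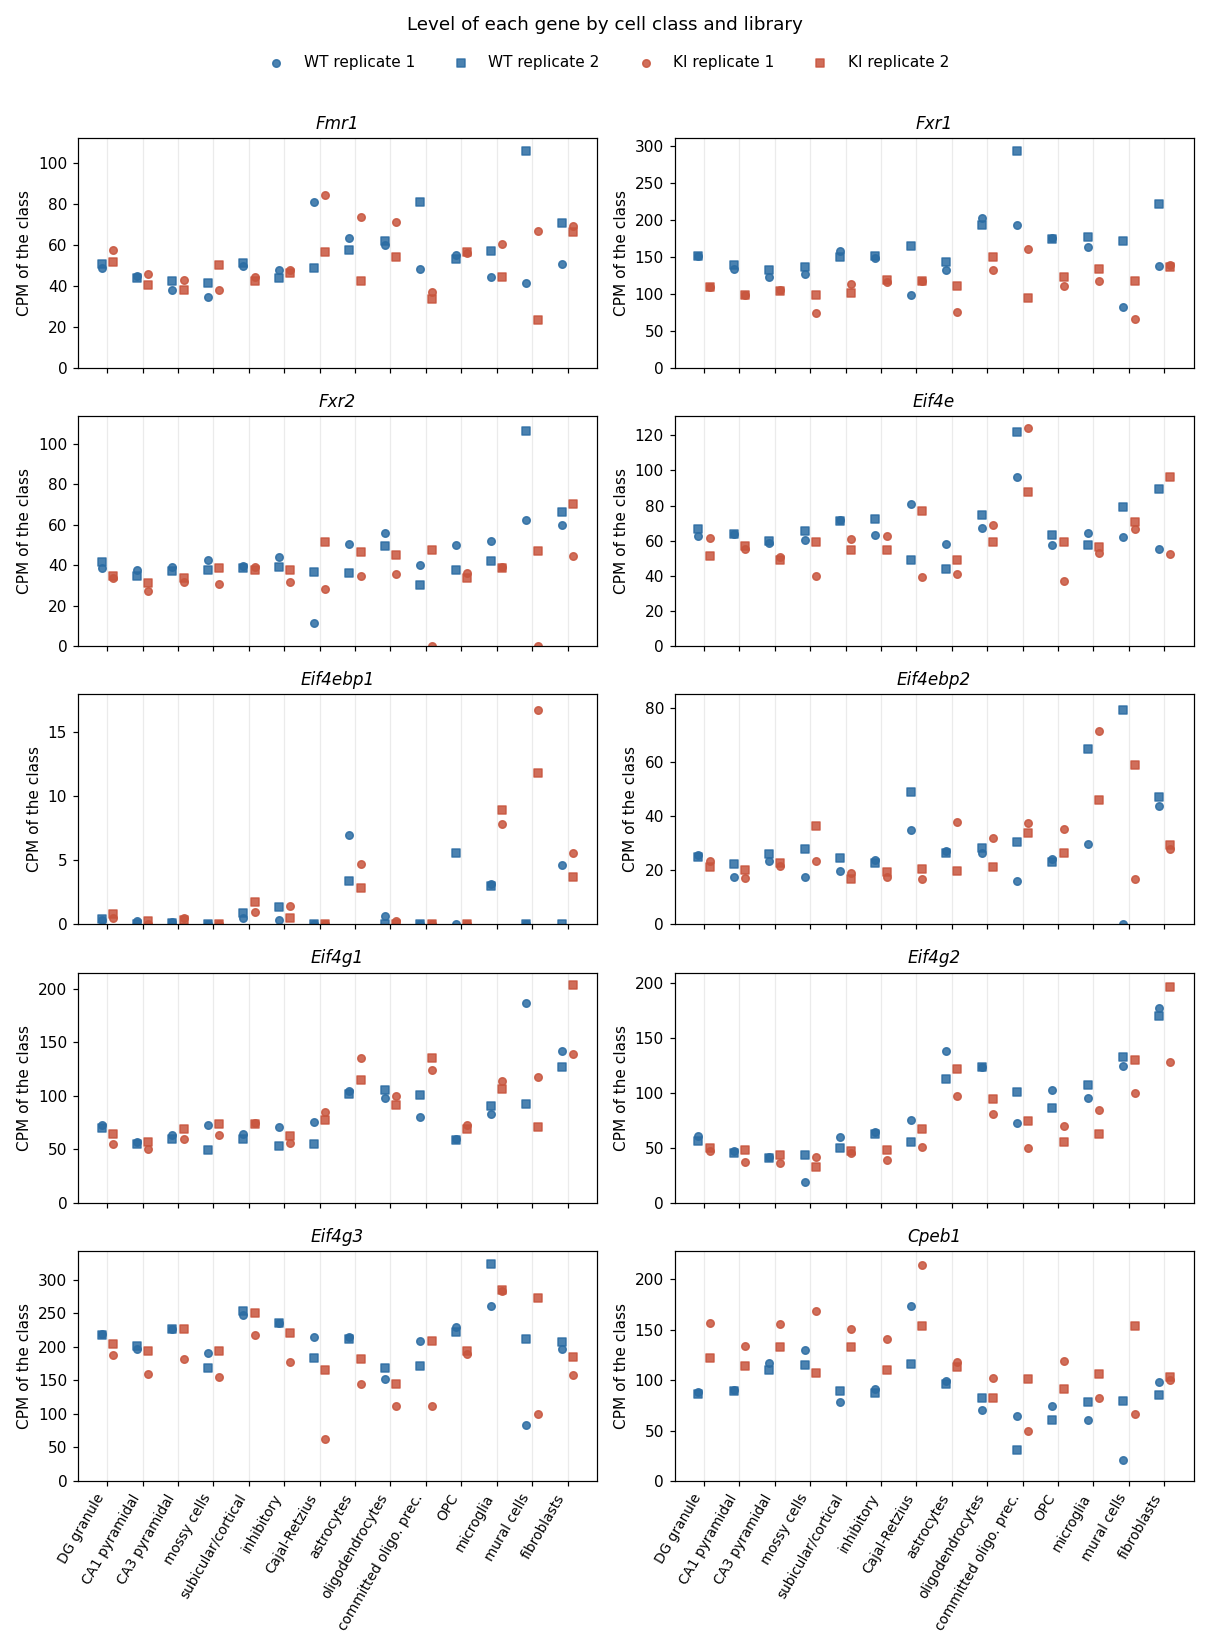
Level of each gene in CPM of the class (vertical axes, from 0) by cell class (horizontal axis) and library; blue marks are WT and red marks KI, circles replicate 1 and squares replicate 2. Cpeb1 shows red marks above blue ones in 10 of 14 classes and Fxr1 red marks below blue ones in 11, while Eif4ebp1 stays near 0 in most classes.

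The pattern of each gene over the 56 sums (14 classes in 4 libraries) was compared with that of 10487 other genes of at least 10 CPM by Pearson's r of log2(CPM + 1), as a description. The points share libraries and depth. Cpeb1 was most like B4galnt4 (r = 0.78), Slc4a3 (0.76) and Dpm2 (0.74). Fxr1 was most like Emc10 (0.78), Kif3a (0.73) and Pcbp2 (0.72). Fmr1 was most like Armc1 (0.76), Cdkn1b (0.68) and Cnbp (0.68), and Fxr2 like Zdhhc3 (0.90), Ckmt1 (0.89) and Nono (0.89). For Eif4e the nearest genes were Rap2a (0.71), Znrf1 (0.67) and Ago3 (0.65). For Eif4ebp2 they were Hcfc1 (0.85), Eif2s1 (0.85) and Abraxas2 (0.85), and for the sparse Eif4ebp1 they were Tnfaip8 (0.67), Pbxip1 (0.67) and B2m (0.66). Eif4g1 was nearest to Rps14 (0.83), Tmem30a (0.83) and Rps24 (0.82). Eif4g2 was nearest to Hnrnpul2 (0.92), Rpl37a (0.90) and Actb (0.90), and Eif4g3 to E430024P14Rik (0.79), Zfand2b (0.74) and Sirt5 (0.72).

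The other genes of the pathway were taken from 5 lists of 68 genes in all. Of these, 67 were tested in DG granule neurons, where 2 rose and 2 fell, a share below the 9.78% called over all genes, and the median log2 fold change was -0.01 against 0 over all genes. In CA1 pyramidal neurons 0 of 67 rose and 3 fell (median -0.03), where 7.32% of all genes were called. In CA3 pyramidal neurons 0 of 67 rose and 1 fell (median -0.01), where 2.36% of all genes were called, and in inhibitory neurons and oligodendrocytes none was called. Partners of FMRP and CYFIP (13 genes), cap-binding and initiation factors (16 genes) and the kinases and regulators around mTOR (17 genes) held no call in any class. Cyfip2, the mutated gene, was at 182 and 180 CPM in WT against 172 and 171 CPM in KI over all nuclei (log2 fold change -0.03, adjusted p = 0.852). A 3′ count does not read the changed codon, so these levels do not check the genotype. Cyfip1 was at 155 and 148 against 141 and 139 CPM (-0.06, adjusted p = 0.665).

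Of the CPEB family and its polyadenylation partners (11 genes), 1 rose in DG granule neurons, close to the 9.78% called over all genes there, and none was called in another class. Cpeb3, a relative of CPEB1 that regulates mRNAs of glutamate receptors, was at 256 and 260 CPM in WT against 303 and 328 CPM in KI in DG granule neurons (log2 fold change 0.42, SE 0.0845, adjusted p = 0.0312). It was no longer called without TMM factors (0.29, adjusted p = 0.0887). The median of this list in DG granule neurons was 0.31, against 0 over all genes. It was -0.053 in CA1 pyramidal neurons, -0.045 in CA3 pyramidal neurons, -0.194 in mossy cells and 0.104 in inhibitory neurons.

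The called genes among the 11 mRNAs known as FMRP targets were Camk2a, Kcnma1, Dlg4, Grm5 and Arc. In DG granule neurons 1 of 10 tested rose and 2 fell, where 9.78% of all genes were called. In CA1 pyramidal neurons 0 of 10 rose and 3 fell, where 7.32% of all genes were called. In CA3 pyramidal neurons 0 of 10 rose and 1 fell, where 2.36% of all genes were called. In DG granule neurons Camk2a, the alpha subunit of a calcium-dependent kinase of the synapse, fell from 1485 and 1483 CPM to 934 and 916 CPM (log2 fold change -0.55, SE 0.0781, adjusted p = 0.0118). Kcnma1, the BK potassium channel, rose there from 967 and 978 CPM to 1388 and 1228 CPM (0.57, SE 0.101, adjusted p = 0.0222). In CA1 pyramidal neurons Dlg4, which encodes the scaffold PSD-95, fell from 109 and 104 CPM to 63.7 and 70 CPM (-0.58, SE 0.0938, adjusted p = 0.0189). Grm5, a metabotropic glutamate receptor, fell there from 3018 and 2978 CPM to 2079 and 2347 CPM (-0.35, SE 0.0693, adjusted p = 0.0312). Arc, an activity-induced gene of the synapse, fell in CA1 pyramidal neurons from 17.1 and 22.6 CPM to 2.1 and 3.28 CPM (-2.80, SE 0.254, adjusted p = 0.00397). It was also called in DG granule and CA3 pyramidal neurons, at under 10 CPM in every library. Over all nuclei it was the one pathway gene called, at 8.98 and 10.1 CPM in WT against 1.93 and 2.07 CPM in KI (-2.20, adjusted p = 0.0367). Among these 8 calls of pathway genes within classes, Arc in CA1 pyramidal neurons was the only one kept without either WT library. The count of 8 fell without either WT library and rose without either KI library. Calls over all genes of DG granule and CA1 pyramidal neurons moved the same way. These measurements are of RNA in nuclei, and FMRP acts on the translation of these mRNAs, which was not measured.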

How the data were processed

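Nuclei from the frozen hippocampi of 4 mice were profiled by a droplet method that reads 3′ ends. The deposited matrices, made by the authors with Cell Ranger 7.0.1 (per the file headers; build mm10 per the submitters' processing notes), hold raw UMI counts per gene and barcode, with 77370563, 73051680, 73009975 and 80913580 UMIs in WT replicates 1 and 2 and KI replicates 1 and 2. Use of introns and strand is not given in the sources used here. Groups came from the titles.

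Of 55640 barcodes, 345 with under 500 genes or at least 5% mitochondrial UMIs and 3263 with a doublet score above 0.25 (Scrublet in scanpy 1.11.5, a limit set after scores were known) were removed. Nuclei were clustered (2000 variable genes, 30 components, 20 neighbours, leidenalg 0.10.2, resolution 0.5), with no member among the variable genes. A cluster took the name of a class with 3 or more markers raised at least 2-fold, and naming limits were set after clusters had been seen, so names can differ from those of the study. Libraries shared 313 barcode sequences.

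Counts summed per library and class (at least 20 nuclei in every library) were tested by edgeR 4.0.16 (low-count filter, TMM, quasi-likelihood, Benjamini-Hochberg over all genes of the class, threshold 0.05), where the study tested single nuclei. For 4 pairs of classes the fit held both classes, the library as a block, and a term for class by genotype. With 2 mice per group an exact permutation test cannot go below p = 0.333. The edgeR p-values rest on the spread between these mice, in part borrowed for each gene from the other genes. Replicates differed by more than sampling noise (chi-square per degree of freedom 15.4 in WT, 43 in KI). On simulated counts the fit was checked against known changes. Members, lists and tests were chosen with earlier results of these data known. All 10 members are named. Of each pathway list and class, up to 3 genes per direction past the threshold are named, with the largest fold change, a mean of at least 10 CPM and no overlap. The 3 genes of most similar pattern are named per member. Arc below 10 CPM was named after its values were seen. Positions are from GENCODE M21 (GRCm38), which held 32158 of 32285 gene IDs, and promoters from RefSeq (GRCm38.p6). Alternatives were library totals, DESeq2 1.42.0, no filter, each library left out, a replicate block, doublets kept, at least 1000 genes, equal depth and gating each nucleus on its own. CPM without Malat1 in the totals was an alternative chosen for the tests after seeing the data.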

Additional observations from a re-analysis of the deposited data

Results flagged for a closer look

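The effect of the KI genotype on Cpeb1 differed between classes of the same mice: the log2 fold change in DG granule neurons exceeded that in CA3 pyramidal neurons by 0.392 (0.82 against 0.43, edgeR class-by-genotype term, adjusted p = 0.0165), with both KI libraries above both WT libraries in each class. The call passed the threshold in 7 of 10 alternatives. It was lost without either WT library and with each nucleus gated on its own. It was the one call among 37 tested combinations of a gene and a pair of classes, and 11.5% of all genes were called for this pair. For DG granule neurons with CA1 pyramidal neurons, inhibitory neurons and oligodendrocytes the shares were 14%, 8.75% and 2.85%. The single call is no more than these shares over all genes.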

How the results depend on the processing

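No called value changed its sign under any alternative. Members called over all nuclei numbered 0 in the main setting, 2 with DESeq2 and 1 with the replicate block. Calls over all genes numbered 193, 1865 and 1955 in these settings. Calls of members within classes numbered 2, against 4 with library totals, 7 with no low-count filter, 4 with the replicate block, 1 with doublets kept, 1 at equal depth, 1 with each nucleus gated on its own, and 0 to 20 when each library was left out. Class-by-genotype calls numbered 1, against 0 with each nucleus gated on its own, and that call was also lost without either WT library. Calls of pathway genes numbered 8, against 15 with DESeq2, 36 with no low-count filter, 22 with the replicate block and 2 to 164 when each library was left out. The cause of these shifts was not tested. The deviations of same-numbered samples correlated at r = 0.03 over all nuclei and at -0.16 to 0.34 within classes. The highest values were in subicular or cortical excitatory neurons (0.34), where the block moved the count of all genes called from 0 to 535 with Cpeb1 among them (log2 fold change 0.81, edgeR adjusted p = 0.00543), and in mural cells (0.17). The labels tie no same-numbered samples together, so the block carries no pairing known from the design. Cpeb1 in DG granule neurons was called in 11 of 13 alternatives and in CA1 pyramidal neurons in 8 of 13. The class with the highest level was kept for 10 of 10 genes with doublets kept and without Malat1, 8 in nuclei of at least 1000 genes, but 2 with each nucleus gated on its own, which placed 52.7% of the named nuclei in the same class. Depth limits Eif4ebp1 and the classes of under 100 nuclei per library.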

Other observations

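The 10 clusters left unnamed held 8404 nuclei, whose sums were in no comparison. Cpeb1 was at 85.6 and 87.8 CPM in WT against 140 and 119 CPM in KI there, and Fxr1 at 148 and 142 CPM in WT against 114 and 119 CPM in KI. Fmr1 was at 50.7 and 50.5 against 52.9 and 45 CPM, and Eif4e at 66.2 and 65.2 against 62.3 and 58.9 CPM. Both Cpeb1 and Fxr1 lay apart between the genotypes in these nuclei, while Fmr1 overlapped.

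The inhibitory neurons came from 3 clusters. Cpeb1 was at 83.8 and 76.9 CPM in WT against 141 and 109 CPM in KI in the first, and at 85.1 and 77.1 against 129 and 102 CPM in the second. In the third, the smallest, WT was at 119 and 139 CPM and KI at 163 and 129 CPM, which overlapped. Fxr1 was lower in both KI libraries in all 3 clusters, at 142 and 144 against 107 and 112 CPM in the first, 147 and 162 against 132 and 133 CPM in the second, and 169 and 157 against 123 and 121 CPM in the third. The differences between clusters were not tested. In oligodendrocytes the cluster that held most WT nuclei gave Fxr1 at 205 and 195 CPM in WT, and in its 37 and 80 KI nuclei at 210 and 135 CPM from 13 and 14 UMIs. The cluster that held most KI nuclei gave 132 and 151 CPM in KI. Within a cluster the genotypes could therefore not be compared on more than a few UMIs. The lower Fxr1 of KI oligodendrocytes cannot be told apart from a difference between these clusters, and the same holds for their Cpeb1 and Eif4g2 values.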
